A study of Mus musculus with 3 samples.

Results

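Complement genes were followed across 3 lines of mouse OP9 cells: Serping1, C3, C4b, Cfb, C1s, C1ra, Cd59a and Masp1. The 8 genes were chosen by name, with earlier results of these data known. Their probes were found by the gene symbol of the array or an older synonym. Of the 23473 probes, the 16631 with a single gene symbol were searched. Among these, 6 belonged to the 8 genes, 1 each for C1s, Masp1, C3, Cfb, Serping1 and Cd59a. No single-symbol probe was listed under C4b or C1ra or under their older symbols, so these are not analysed here. A probe with several symbols would have been missed, so their absence from the array is not shown. A probe named C4a, for the near-identical neighbour of C4b, is described with the other complement genes.

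OP9 is a stromal cell line used as a feeder layer for blood cells, described here as coming from the skull cap of a newborn mouse of the B6C3Fe-a/a-Csf1op/Csf1op strain, which carries the osteopetrosis mutation of Csf1 in all 3 lines. The first line was OP9 without any addition, the second (OP9-GFP) expressed green fluorescent protein, GFP, and the final line (OP9-DL) expressed GFP with the Notch ligand Delta-like 1. All were grown without treatment in alpha MEM with 20% serum, and total RNA of each was read on 1 one-colour array. How GFP and Delta-like 1 were introduced, and whether each line is 1 clone, was not given in the sources used here. With 1 array per line there is no replicate error and hence no test, and Delta-like 1 cannot be told apart from anything else that differed between the cultures.

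Complement is a cascade of blood and tissue proteins that marks and punctures cells. In the classical pathway the protease C1r activates C1s, which cleaves C4 and C2. In the lectin pathway MASP proteases cleave them, and in the alternative pathway factor B and factor D build on C3 itself. The branches meet at C3 and end in the membrane attack complex, and inhibitors such as the C1 inhibitor and CD59 hold them back. Most plasma complement comes from the liver, but fibroblasts and other stromal cells also make it, and interferon and inflammatory cytokines are known to induce several of its genes.

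Values are intensities as the authors scaled them, with a median of 20 on each array. Compared were 15581 probes: those read on each of the 3 arrays whose mean log2 value reached the 25th percentile, which is an intensity of 6.13 and is called the brightness limit here, and 2-fold was used as the size to count. Dll1, which encodes Delta-like 1, had intensities of 14.0 in OP9, 20.5 in OP9-GFP and 333.3 in OP9-DL, and so was highest in the line labelled with Delta-like 1. Of 13 stromal markers on the array, Vim had the highest mean reading (18420, 25328 and 32110), while Thy1, Eng and Nt5e were below the limit. Among the stromal markers Col1a1 was 2.65-fold higher and Pdgfra 4.82-fold lower in OP9-GFP than in OP9, and Cxcl12 was 2.21-fold lower in OP9-DL than in OP9-GFP.

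The 6 genes did not share one pattern. C1s and Cfb were highest in OP9, Serping1 stood high in OP9-GFP, Cd59a was higher there too, and C3 and Masp1 were close on the 3 arrays. All 6 probes lay above the brightness limit in their mean, although Serping1 did so through the OP9-GFP array alone and Cfb read below it in OP9-DL. In RNA of whole cultures, fewer cells of a type and less RNA per cell cannot be told apart.

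**Figure D1:**
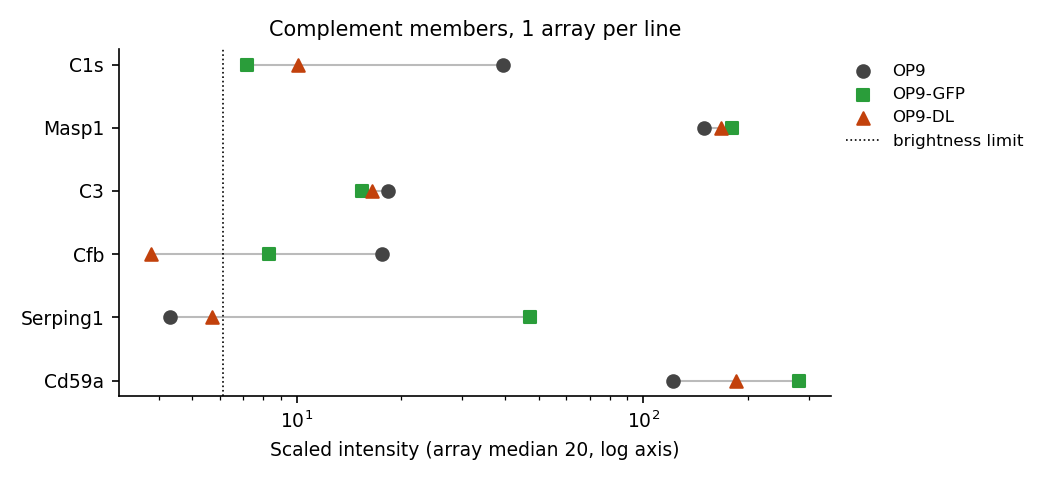
Scaled intensity (x axis, log scale) of the 6 complement genes with a probe, with 1 point for each array (circle OP9, square OP9-GFP, triangle OP9-DL) and a grey line over their range. Serping1 reaches 47.0 in OP9-GFP alone, C1s is highest at 39.3 in OP9, and the points of C3 and Masp1 lie close together; probes differ in their response, so levels of different genes cannot be compared.

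Among the proteases of the classical pathway, C1s, which cleaves C4 and C2 once C1r has activated it, had an intensity of 39.3 in OP9, 7.2 in OP9-GFP and 10.1 in OP9-DL. The OP9 array thus stood above both arrays of GFP-carrying cells. C1s was 5.46-fold lower in OP9-GFP and 3.89-fold lower in OP9-DL than in OP9, and 1.40-fold higher in OP9-DL than in OP9-GFP. A position at least 2-fold above both other arrays, as C1s had in OP9, was held by 3.98% of the compared probes. The mouse genome holds a close copy of C1s, C1s2, which had no single-symbol probe named for it. What the C1s probe reads is uncertain in that respect.

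C1rl, a protease related to C1r, lies next to C1ra and C1s in the gene order of chromosome 6. It read 184.1, 27.3 and 50.5 across OP9, OP9-GFP and OP9-DL, and so was also highest in OP9. C1rl was 6.74-fold lower in OP9-GFP and 3.65-fold lower in OP9-DL than in OP9. The other genes around C1s on the array were closer between the lines: Pex5 read 49.9, 45.4 and 39.6, Clstn3 13.8, 15.8 and 18.6, and Phb2 3834, 4354 and 4026. Lpcat3 (328.9, 183.1 and 212.2) and Emg1 (1230, 1885 and 1701) also stayed within 2-fold. Of the 6 neighbours of C1s compared, 1 was at least 2-fold lower in OP9-GFP, and that was C1rl.

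The sequences before both genes are shown because they are neighbours that were high on the same array, with those of C3, which was flat, and of Cd59a, which was lowest on that array. They are the 250 bases before the start of the gene in RefSeq (GRCm38.p6), written 5′ to 3′ on the strand of the gene, for C1s1 (the current name of C1s) at chr6:124542360-124542609 on the minus strand, C1rl at chr6:124492863-124493112 on the plus strand, C3 at chr17:57228137-57228386 on the minus strand and Cd59a at chr2:104095551-104095800 on the plus strand. Capitals mark matches to the motifs given after them.
C1s1: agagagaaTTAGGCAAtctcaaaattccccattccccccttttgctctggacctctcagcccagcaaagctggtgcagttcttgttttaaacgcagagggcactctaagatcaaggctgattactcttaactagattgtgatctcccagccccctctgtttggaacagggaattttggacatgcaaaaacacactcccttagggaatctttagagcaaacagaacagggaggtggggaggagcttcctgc
C1rl: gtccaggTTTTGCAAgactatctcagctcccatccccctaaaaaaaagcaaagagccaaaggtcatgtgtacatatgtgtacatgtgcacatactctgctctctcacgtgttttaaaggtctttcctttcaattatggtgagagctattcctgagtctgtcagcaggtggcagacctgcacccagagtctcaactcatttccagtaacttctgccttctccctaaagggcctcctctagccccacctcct
C3: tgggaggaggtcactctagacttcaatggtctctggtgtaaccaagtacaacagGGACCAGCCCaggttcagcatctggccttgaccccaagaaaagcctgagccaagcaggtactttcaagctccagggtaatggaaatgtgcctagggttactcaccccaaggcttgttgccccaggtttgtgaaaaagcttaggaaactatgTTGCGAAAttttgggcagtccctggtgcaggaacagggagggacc
Cd59a: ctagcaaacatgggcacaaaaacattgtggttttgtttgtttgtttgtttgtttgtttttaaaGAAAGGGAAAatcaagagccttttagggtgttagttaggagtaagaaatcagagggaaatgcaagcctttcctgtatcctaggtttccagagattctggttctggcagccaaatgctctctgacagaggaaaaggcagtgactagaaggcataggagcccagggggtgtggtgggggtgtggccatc

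Letters of 5 motifs were searched on both strands: TTTCNNTTTC for the interferon-stimulated response element, TTCNNNGAA for STAT dimers, GGGNNNNTCC for NF-kB, TTGCNNAA for C/EBP and TATAAA for the TATA box. C1s1 and C1rl each held 1 match to the C/EBP letters, from 242 to 235 bases and from 243 to 236 bases before the start, and 9.56% of 32851 RefSeq promoters hold one. C3 held the C/EBP letters from 45 to 38 bases before its start and the NF-kB letters from 196 to 187, which 16.5% of promoters hold. The response element letters, found in 2.98% of promoters, were matched in Cd59a, from 187 to 178 bases before the start, and not in the windows of C1s1, C1rl or C3. The STAT letters (7.02% of promoters) and TATAAA (12.4%) were not in these windows, and no matches overlapped one another. A second start of C1s1, at chr6:124542322-124542571, and the window of C1ra, at chr6:124512371-124512620, held none of the 5. A match is a string of letters and not a site in use. Serping1, Cfb, C4b and Masp1 were not matched in the promoter table.

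Masp1, the lectin pathway protease that also has splice forms acting outside that pathway, read 149.6 in OP9, 180.0 in OP9-GFP and 168.1 in OP9-DL. The highest was 1.20-fold above the lowest. Its neighbours on chromosome 16 did not share this: Rtp4 read 1549, 183.3 and 283.0 and Adipoq 29.0, 495.9 and 146.7, while St6gal1 read 197.1, 265.7 and 272.7 and Sst 84.7, 73.0 and 88.2. Masp1 thus stood close between the lines with genes on either side that differed by more than 2-fold in opposite directions.

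C3, the component on which the branches meet, had intensities of 18.3, 15.4 and 16.5 across OP9, OP9-GFP and OP9-DL. The arrays lay within 1.19-fold of each other. Its neighbours Trip10 (195.3, 247.4 and 263.9), Gpr108 (343.2, 201.8 and 272.9) and Tnfsf9 (9.4, 10.8 and 14.1) also stayed within 2-fold.

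Cfb, which encodes factor B, the protease of the alternative pathway convertase, read 17.6 in OP9, 8.3 in OP9-GFP and 3.8 in OP9-DL. It was highest in OP9 and lowest in OP9-DL, where it was below the brightness limit, so the size of its differences is not firm. Cfb was 2.12-fold lower in OP9-GFP and 4.63-fold lower in OP9-DL than in OP9, and 2.18-fold lower in OP9-DL than in OP9-GFP. With 2 added to the intensities, the first difference went from -1.08 to -0.93 and the last from -1.13 to -0.83, both short of 2-fold.

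Cfb lies in the major histocompatibility region of chromosome 17. None of its 5 neighbours that were compared reached 2-fold between any pair of arrays. Nelfe read 240.3, 271.8 and 260.7, Zbtb12 19.7, 20.6 and 17.7, Skiv2l 79.3, 59.7 and 55.9, Dxo 113.2, 123.6 and 111.0, and Ehmt2 1220, 732.0 and 947.2. C2, the classical pathway protease related to factor B and lying beside it, was below the limit, with 3.6, 3.7 and 3.4. Of the genes around C4b, further along the same region, C4a read 35.6, 57.0 and 32.5 and Stk19 105.0, 201.7 and 137.2, all within 2-fold. Probes for C4a and C4b can mix both genes, so the C4a values are uncertain. On the other side of C4b, Fkbpl was 2.17-fold lower in OP9-GFP than in OP9. Atf6b, on that side too, read 55.4, 41.1 and 25.9, and was 2.14-fold lower in OP9-DL than in OP9.

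Serping1, which encodes the C1 inhibitor, the serpin that blocks C1r, C1s and MASP proteases as well as proteases of the contact system, read 4.3 in OP9, 47.0 in OP9-GFP and 5.7 in OP9-DL. The OP9-GFP array stood alone, and the other two were below the brightness limit. Its ratio of OP9-GFP to OP9 was 10.9 and that of OP9-GFP to OP9-DL 8.25, but as both denominators are below the limit these give a direction and no firm fold. On the OP9-DL and OP9 arrays it lay within 1.33-fold. With a constant of 2 the first difference went from 3.45 to 2.96 on the log2 scale and the second from -3.04 to -2.67.

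Serping1 and its target C1s lay opposite to each other between OP9 and OP9-GFP, with Serping1 higher and C1s lower in OP9-GFP. Between OP9-DL and OP9 C1s was again lower, while Serping1 was nearly level. Of 5 neighbours of Serping1 on chromosome 2, Ube2l6 read 115.3, 50.8 and 48.9, which is 2.27-fold lower in OP9-GFP than in OP9. Zdhhc5 (64.8, 96.1 and 65.5), Clp1 (65.0, 93.5 and 76.9), Ypel4 (13.3, 10.3 and 9.2) and Slc43a1 (7.2, 13.2 and 8.4) stayed within 2-fold, and none was at least 2-fold higher.

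Among 10 other serpin genes on the array, 5 were compared, and none reached 2-fold between any pair of arrays. Serpinf1, the pigment epithelium-derived factor, read 5630, 3758 and 3997, Serpinb6a 70.9, 73.5 and 115.8, and Serpinb9, an inhibitor of granzyme B, 138.7, 97.6 and 153.3. Serpina3n read 22.2, 21.4 and 25.8. Among those below the mean limit, Serpinb2, an intracellular serpin, read 2.9, 2.3 and 19.1, which like Serping1 is a single higher array beside dim ones, here OP9-DL. Of the contact and clotting proteases and substrates that the C1 inhibitor can act on or beside, F12, factor XII, read 8.3, 11.5 and 11.3. Plat, the tissue plasminogen activator, read 31.7, 21.9 and 7.5, and was 4.23-fold lower in OP9-DL than in OP9 and 2.92-fold lower than in OP9-GFP. Plg stayed within 2-fold (9.7, 9.7 and 14.9).

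Cd59a, which encodes the membrane-anchored CD59 that blocks assembly of the membrane attack complex, read 121.6 in OP9, 280.5 in OP9-GFP and 185.5 in OP9-DL. The OP9-DL array lay between the others. Cd59a was 2.31-fold higher in OP9-GFP than in OP9, 1.53-fold higher in OP9-DL than in OP9, and 1.51-fold lower in OP9-DL than in OP9-GFP. Its copy Cd59b had no single-symbol probe named for it, and the Cd59a probe may read both. Among its neighbours on chromosome 2, Hipk3 was 2.96-fold higher in OP9-GFP than in OP9 (19.8, 58.6 and 31.9), and Fbxo3 was level (96.5, 109.3 and 93.4).

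**Figure D2:**
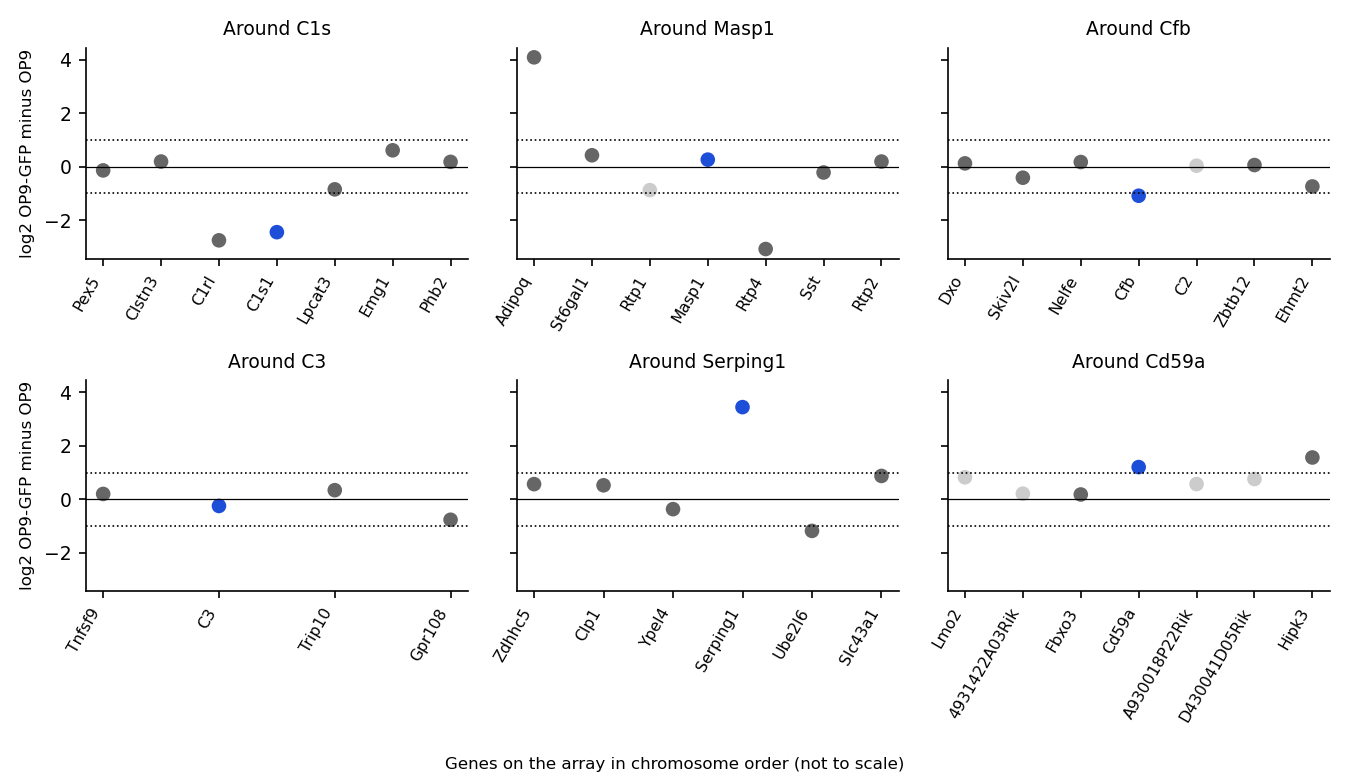
Log2 difference of intensity, OP9-GFP minus OP9 (y axis), for 6 complement genes (blue) and the nearest genes on the array on each side in chromosome order (x axis, not to scale; light grey below the brightness limit; probes blank on either array left out; dotted lines at 2-fold). C1s1, the current name of C1s, and C1rl are both lower by over 2-fold, whereas Serping1 is higher by 3.45 beside neighbours between -1.18 and 0.87. The OP9 reading of Serping1 is below the brightness limit, so its 3.45 gives a direction and no firm size.

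Set beside all compared probes, 2 of the 6 genes were at least 2-fold higher in OP9-GFP than in OP9, Serping1 and Cd59a, where 4.86% of all probes were. Another 2, C1s and Cfb, were at least 2-fold lower, where 6.75% were. Serping1 was in the compared set through its high OP9-GFP reading alone. Nothing is therefore read from the count of higher genes or from the place of Serping1 among all probes. The median difference of the 6 genes was 0.01, and that of all probes 0.02. Of the probes, 95% lay between -1.55 and 1.26 on the log2 scale, and Serping1 (3.45) and C1s (-2.45) lay outside, Cfb (-1.08) and Cd59a (1.21) inside.

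Between OP9-DL and OP9, C1s and Cfb were at least 2-fold lower, as were 6.91% of all probes, and 0 of the 6 were higher, against 4.31% of all probes. The median was 0.01, and that of all probes 0.02. Both comparisons use the OP9 array, so they are not independent of each other. Between OP9-DL and OP9-GFP, Serping1 and Cfb were at least 2-fold lower, as were 2.72% of all probes, and 0 were higher, against 2.31%. The median there was -0.35, and that of all probes -0.01. Serping1 was in the compared set through its OP9-GFP reading alone, and Cfb was below the brightness limit in OP9-DL. Nothing is therefore read from this count or this median.

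**Figure D3:**
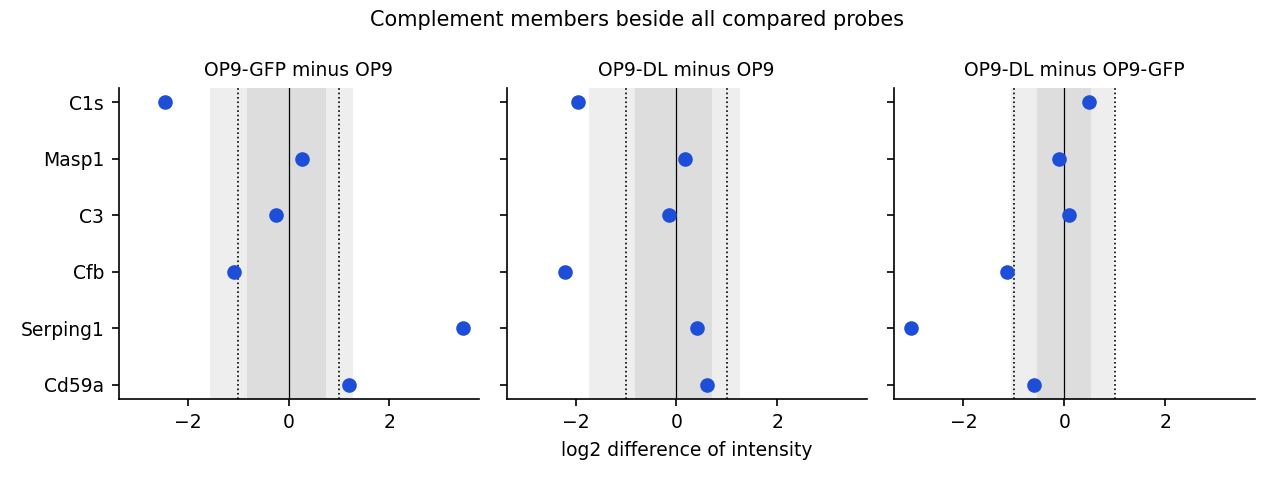
Log2 difference of intensity (x axis) of the 6 complement genes in the 3 comparisons, over bands that hold the middle 80% (dark grey) and 95% (light grey) of 15581 compared probes, with dotted lines at 2-fold. Serping1 lies outside the 95% band in both comparisons with OP9-GFP, C1s in both with OP9, and Cfb in both with OP9-DL. Serping1 was compared through its OP9-GFP reading alone, and Cfb was below the brightness limit in OP9-DL. Nothing is read from the places of these genes against the bands.

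Each of these genes rests on a single probe. How much probes of one gene can differ was read from 125 genes with 2 compared probes. The differences of the pair were apart by a median of 0.42 on the log2 scale for OP9-GFP against OP9, 0.36 for OP9-DL against OP9 and 0.32 for OP9-DL against OP9-GFP. They were apart by 1 or more in 11.2%, 17.6% and 10.4% of these genes. The differences of Cfb and Cd59a between OP9-GFP and OP9 are near that size, and that of C1s is over it. Serping1 is not set against it, because its OP9 reading is below the brightness limit and gives no firm size. Such probes share the RNA and the array, so this is no measure of how cultures vary.

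The genes with the nearest pattern were sought over 11494 compared probes with a symbol, by the Euclidean distance of the log2 values of the 3 arrays after the mean of each gene was taken off. For Serping1, Rassf6 (9.9, 86.3 and 14.0) was nearest at 0.31, and 1 probe lay within 0.5. Next were Slc1a6 (2.7, 26.7 and 5.6) at 0.60 and Car3 (3.6, 21.8 and 4.5) at 0.66. Like Serping1, Slc1a6 and Car3 read above the brightness limit in OP9-GFP alone. The wide spread of Serping1 rests on readings below the limit, so rarity is not read from its count within 0.5. For C1s, Oas1b (42.6, 8.3 and 11.3), Aox1 (125.8, 24.4 and 32.1) and Sh3tc2 (26.3, 4.3 and 6.2) were nearest, and 77 probes lay within 0.5. For Cfb these were Arhgdib (21.7, 10.9 and 4.8), Gstm1 (160.7, 76.0 and 36.8) and Nr4a2 (81.1, 42.0 and 17.5), with 91 probes within 0.5. For Cd59a, whose arrays spread less, 1284 probes lay within 0.5, the nearest being H2ac10, Htra1 (9.5, 21.5 and 14.4) and Srsf1 (238.4, 547.7 and 355.8). These distances rest on 3 arrays.

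Of 56 other complement genes listed for context, 46 had a probe, and 22 were bright enough to compare. In OP9-GFP, 5 of the 22 were at least 2-fold above OP9 (Cfd, C4bp, Cr1l, Csmd2 and C3ar1) and 2 were below (C1rl and Lrp1). In OP9-DL, 5 were above OP9 (Cfd, C4bp, Colec11, Csmd2 and C3ar1) and 2 below (C1rl and Cd93). Against OP9-GFP, OP9-DL was higher in 1 (C3ar1) and lower in 3 (Cfd, Colec12 and Cd93). Of all compared probes, 4.86% were higher and 6.75% lower in the first comparison, 4.31% and 6.91% in the second, and 2.31% and 2.72% in the third. C4bp read 4.5 in OP9, below the brightness limit, and was compared through the arrays where it is high. C3ar1 read 6.8 in OP9, near the limit. Nothing is therefore read from the counts of genes higher than in OP9. The medians were 0.24, 0.03 and 0.09, beside medians of all probes of 0.02, 0.02 and -0.01.

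Cfd, factor D or adipsin, which cleaves factor B once it is bound to C3, read 17.0 in OP9, 399.5 in OP9-GFP and 43.1 in OP9-DL. It was highest in OP9-GFP, like Serping1, and 23.5-fold above OP9. Factor B and factor D, which act in one step of the alternative pathway, therefore lay on opposite sides: Cfb was lower and Cfd higher in OP9-GFP than in OP9. Cfp, properdin, which steadies the convertase, was within 2-fold (21.9, 17.8 and 14.4).

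Of the recognition molecules, C1qb (1.8, 2.6 and 2.4) and C1qc (4.0, 5.6 and 5.2) were below the limit, and C1qa read 1.6 in OP9-GFP and was blank on the other arrays. Of the lectins of the lectin pathway, Mbl1 (9.2, 8.6 and 8.7) and Mbl2 (10.1, 7.7 and 8.6) were near the limit and level, and Masp2 had 1.1 in OP9 and OP9-GFP and was blank on OP9-DL. Colec11, a collectin that binds sugars, read 7.1, 9.7 and 14.6, which is 2.06-fold higher in OP9-DL than in OP9. Colec12, a membrane collectin, read 67.5, 98.5 and 35.4, and was 2.78-fold lower in OP9-DL than in OP9-GFP. The terminal pathway had 5 probes, of which C8a was compared (11, 6.5 and 12.3); Hc, C6, C8b and C9 were below the limit.

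**Figure D4:**
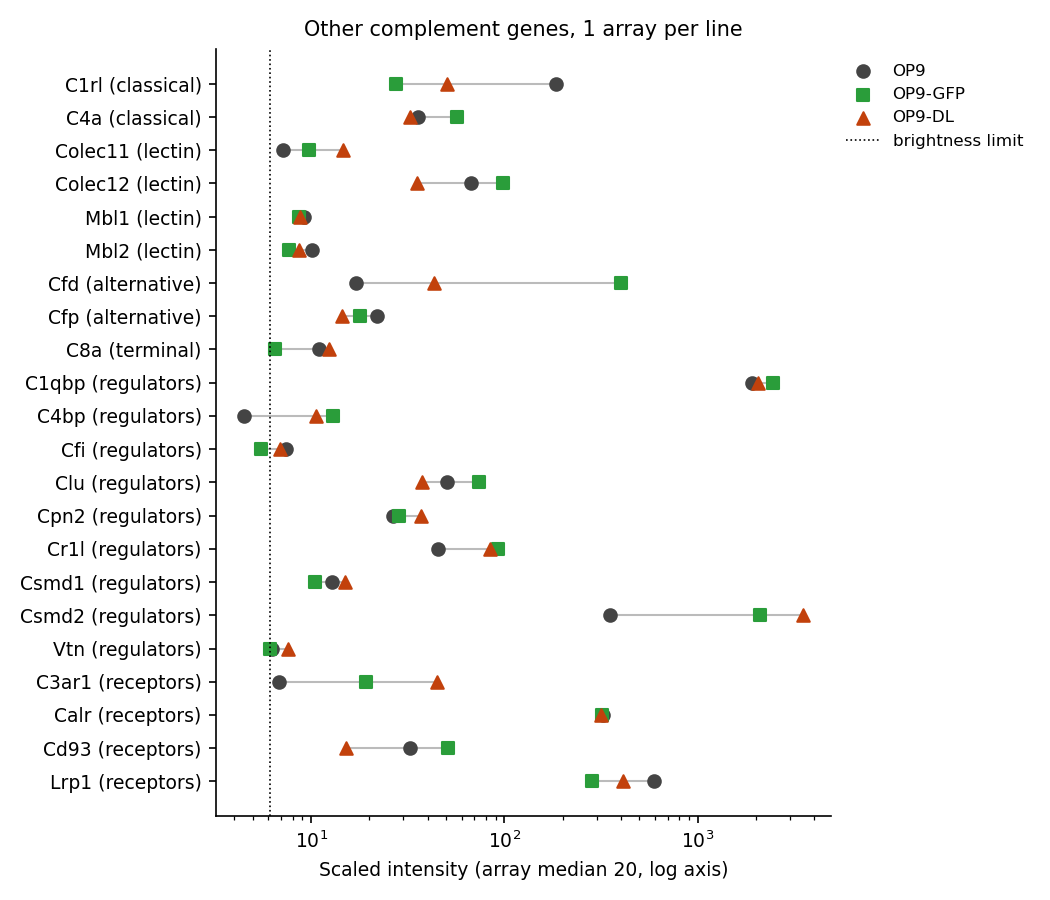
Scaled intensity (x axis, log scale) of the 22 other complement genes that were compared, grouped by their place in the pathway, with 1 point for each array (circle OP9, square OP9-GFP, triangle OP9-DL). Cfd spans 17.0 to 399.5, C1rl 27.3 to 184.1 and Csmd2 353.9 to 3514, while Calr and C1qbp lie close on the 3 arrays.

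Among the other regulators, Cr1l, which encodes Crry, the rodent membrane inhibitor of C3 convertases, read 45.1, 92.8 and 84.4. It was 2.06-fold higher in OP9-GFP and 1.87-fold higher in OP9-DL than in OP9. C4bp, the C4b-binding protein, read 4.5, 13.0 and 10.6, 2.89-fold and 2.36-fold above OP9 from a reading below the limit. Csmd2, a large membrane protein with CUB and sushi domains, read 353.9, 2101 and 3514, and was 5.94-fold higher in OP9-GFP and 9.93-fold higher in OP9-DL. Clu, clusterin, an inhibitor of the terminal complex, stayed within 2-fold (50.7, 74.2 and 37.5), as did Vtn, vitronectin (6.3, 6.1 and 7.6). Csmd1, which has CUB and sushi domains too, also stayed within 2-fold (12.8, 10.4 and 15.0). Cd46, another membrane inhibitor, was below the limit (6.3, 4.2 and 7.3), and Cd55 was blank on all 3 arrays.

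Of the receptors, C3ar1, which binds the C3a fragment, read 6.8 in OP9, 19.3 in OP9-GFP and 44.9 in OP9-DL. The 3 arrays were at least 2-fold apart from each other, with the OP9-DL array 6.60-fold above OP9 and 2.33-fold above OP9-GFP. Cd93, a surface glycoprotein once taken for a C1q receptor, was 3.36-fold lower in OP9-DL than in OP9-GFP (32.6, 50.8 and 15.1). Lrp1, an endocytic receptor that clears complexes of proteases with serpins, was 2.10-fold lower in OP9-GFP than in OP9 (597.7, 284.1 and 413.5). C5ar1 (2.0, 2.3 and 1.4) was below the limit.

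Markers of other cells that make complement were read on the same arrays. Of macrophage markers, 13 had a probe, with summed intensities of 194.3 in OP9, 195.1 in OP9-GFP and 183.4 in OP9-DL. Of these, 8 were bright enough to compare and 5 were not. Ptprc, the pan-leukocyte antigen, read 2.1, 2.5 and 2.8, and Adgre1, F4/80, 1.3 and 1.1 with a blank on OP9-DL, while Csf1r, the receptor for CSF-1, read 24.8, 19.9 and 20.6, and Spi1 (10.4, 11.2 and 8.9), Tyrobp (9.3, 11.7 and 13.9) and Fcer1g (14.1, 17.9 and 10) were above the limit. Cd68 had the highest mean reading (29.4, 42.9 and 46.3), Mertk was 3.69-fold higher in OP9-GFP than in OP9 (8.6, 31.7 and 33.8), and Aif1 (27.9, 13.8 and 12.7) and Cd14 (55.6, 34 and 23.0) were higher in OP9. Liver markers, from 9 probes, summed to 138.7, 147.1 and 194.8, with Fgb highest (77.7, 90.2 and 127.8) and Alb at 1.4, 2.5 and 2.9. Endothelial markers, from 10 probes, summed to 53.9, 44.5 and 52.8, with Kdr highest (25.5, 18.6 and 19.7) and Pecam1 blank on 2 arrays. Mast cell markers, from 10 probes, summed to 148.6, 100.3 and 909.1, of which Tpsab1 made 818.9 in OP9-DL, while Kit and Fcer1a were at most 1.6 and Gata2 read 85.9, 55.9 and 53.1. The macrophage, liver and endothelial sums lay within 2-fold between the lines, and the part of these cells in the complement values was not tested.

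The complement genes were also set beside genes of the interferon response and of acute phase and NF-kB responses, since both kinds of signal are known to act on complement genes. Both lists were chosen with earlier results of these data known. How far their counts lie from the shares of all probes is therefore not read as a result. Of 19 compared interferon genes, 17 were at least 2-fold lower in OP9-GFP than in OP9 and 0 higher, with a median of -3.42, where 6.75% of all probes were lower and 4.86% higher. Oas2 (295.7, 7.9 and 12.6) and Ifit3 (269.5, 5.4 and 10.6) marked the low end and Mx1 (6.6, 8.2 and 7.9) and Rsad2 (61.8, 43.9 and 53.4) the high end. Irf1, a transcription factor of interferon responses, read 231.0, 54.2 and 34.7, and Stat2 355.0, 31.6 and 72.5. C1s, C1rl and Cfb lay in the direction of this list, with both GFP-carrying lines below OP9. C3 and Masp1 were level, and Serping1 lay in the opposite direction in OP9-GFP, from a reading below the brightness limit in OP9. Cd59a was higher in both GFP-carrying lines than in OP9, by 1.21 and 0.61 on the log2 scale, also opposite to the list. Whether interferon signals bear on any of these complement genes in the 3 lines was not tested.

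Of 25 compared acute phase and NF-kB genes, 3 were higher by 2-fold or more and 2 lower in OP9-GFP than in OP9, with a median of -0.20, near the shares of all probes for the lower genes (6.75%) and above it for the higher ones (4.86%). In OP9-DL, 2 were higher and 10 lower than in OP9, with a median of -0.51, where 4.31% and 6.91% of all probes were. On the OP9-DL array 10 were lower and 0 higher than in OP9-GFP, with a median of -0.54, where 2.72% of all probes were lower and 2.31% higher. Ccl2 (298.6, 1831 and 789.3) and Ccl7 (230.0, 1101 and 476.7) marked the high end between OP9-GFP and OP9, and Relb (51.8, 24.7 and 20.6) and Hp, haptoglobin (2130, 963.7 and 84.2), the low end. Hp and Cfb were both highest in OP9 and lowest in OP9-DL, whereas C3 stayed level. A link between these responses and the complement genes was not tested.

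**Figure D5:**
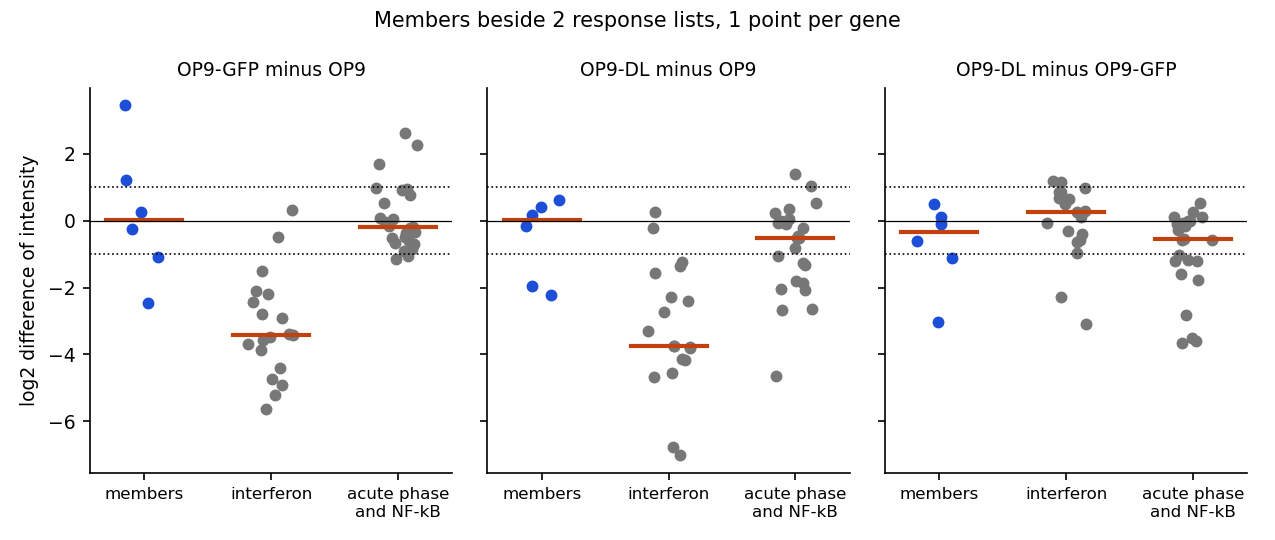
Log2 difference of intensity (y axis) in the 3 comparisons for the 6 complement genes (blue), 19 interferon genes and 25 acute phase and NF-kB genes (grey, 1 point per gene, spread sideways for sight), with the median of each list as a bar and dotted lines at 2-fold. The interferon genes lie at a median of -3.42 between OP9-GFP and OP9, while the complement genes spread from -2.45 to 3.45. The upper end is Serping1, whose OP9 reading is below the brightness limit.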

How the data were processed

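Total RNA of 3 mouse cell lines was read on 3 arrays, 1 per line. Per the labels' protocols, amino allyl RNA was made by amplification, labelled with Cy5 and read on one-colour Toray arrays. The deposited values are linear intensity, which the authors scaled to a median of 20 per array, as seen from the values. Scanner, background correction and the reason for blank cells (6.32% to 6.62% of probes) were not given in the sources used here. The number of arrays limits the precision.

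Values were used as deposited, in log2 with no constant. Of 20775 probes with a value on all arrays, the 15581 above the 25th percentile of mean log2 value were compared. Gene names came from the platform's table (16631 probes with 1 symbol, 6842 without), updated through RefSeq on GRCm38.p6; no build was given for the array in the sources used here, so the table served for names, gene order and promoters. The members and lists were chosen with earlier results of these data known. Named are the 8 genes; other complement, contact and serpin genes at least 2-fold apart, with some of these and of the markers named for contrast after their values were seen; the ends of the response lists; the brightest and the moving cell markers; the 3 nearest patterns; and 3 neighbours on each side. The procedure was tested on simulated data with a noise set in advance. That checks the code and does not measure how often noise passes 2-fold on these arrays. Python 3.11.15 was used with pandas 2.3.3, numpy 2.4.6, statsmodels 0.14.6 and matplotlib 3.10.9.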

Additional observations from a re-analysis of the deposited data

How the results depend on the processing

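Under 10 other settings (quantile, lowess with span 0.3 and median scaling, a brightness limit left out or put at the 50th percentile, a constant of 2, thresholds of 1.5-fold and 3-fold, the brightest probe, blanks at the lowest value) every difference of the 6 complement genes kept its sign wherever the gene was compared. Only the quantile, lowess and median scalings could have changed a sign. The other settings leave the order of the readings of these single probes as it is, so nothing is read from their signs. The constant of 2 took Cfb below 2-fold, at -0.93 for OP9-GFP against OP9 and -0.83 for OP9-DL against OP9-GFP, which left 1 complement gene past 2-fold in the latter. The limit at the 50th percentile keeps only Masp1 and Cd59a, and so counts 1, 0 and 0 complement genes for OP9-GFP against OP9, OP9-DL against OP9 and OP9-DL against OP9-GFP, in place of 4, 2 and 2; it counts 4 in place of 7 of the other complement genes for OP9-DL against OP9. At 3-fold the complement genes counted were 2 for OP9-GFP against OP9 and 1 for OP9-DL against OP9-GFP, and the other complement genes 3, 3 and 2, with 3.57%, 4.21% and 1.76% of all probes past it in the 3 comparisons. At 1.5-fold, 10 of the other complement genes were counted for OP9-DL against OP9-GFP in place of 4, where 16.2% of all probes were. The other totals stayed within 1.5 times, but counts by direction moved more. With no brightness limit, 38 in place of 22 other complement genes were compared. Of these, 4 in place of 2 were lower in OP9-GFP than in OP9. In OP9-DL, 3 in place of 1 were higher than in OP9-GFP. Of all probes, 11.8% and 6.46% were past 2-fold in either direction in these comparisons. At the 50th percentile, 12 of the other complement genes and 2 of the 6 complement genes were compared. The other complement genes higher were 3 in place of 5 for OP9-GFP against OP9 and 2 in place of 5 for OP9-DL against OP9. For OP9-DL against OP9-GFP they were 0 in place of 1. At this limit 12.5%, 11.6% and 4.4% of all probes were past 2-fold in the 3 comparisons. The constant gave 3 in place of 5 other complement genes higher for OP9-DL against OP9. It gave 1 in place of 2 complement genes lower for OP9-GFP against OP9. With the constant, 10.4%, 10.1% and 4.23% of all probes were past 2-fold in the 3 comparisons. At 1.5-fold for OP9-DL against OP9, 1 complement gene in place of 0 was higher and 4 other complement genes in place of 2 lower. In that comparison 28.8% of all probes were past 1.5-fold. For OP9-DL against OP9-GFP, 5 other complement genes in place of 1 were higher and 5 in place of 3 lower. Intensities near the limit of 6.13, as for Serping1, C1s and Cfb, bound how firm a fold is. No paired analysis was possible because each line had 1 array.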
